A study of Mus musculus with 17 samples.

Results

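P2rx7 and Mdga1, 2 of the 27179 gene identifiers in a count table of mouse thymocytes, were followed through all 17 of its libraries. They were chosen by name, and the choice rested on measured values: both stood far lower in wild-type DN3a than in wild-type DN2 cells, and both stood high in DN3a cells that carry an Lmo2 transgene. Those differences are therefore given as a description, without a test. DN2 and DN3a are successive CD4- CD8- double-negative stages of thymocyte development. Every mouse was C57BL/6 by label, either wild-type or Lmo2-transgenic, and the LMO2 protein bridges transcription factors in blood progenitors. The groups, of 3 libraries each except as stated, were wild-type young DN2 (2 libraries, mice of 2.5 weeks), transgenic young DN2 (2.5 weeks), wild-type young DN3a (2.5 weeks, replicate 3 at 3 weeks), transgenic young DN3a (2.5 weeks), wild-type old DN3a (10, 8 and 8 weeks) and transgenic old DN3a (6, 10 and 10 weeks). The libraries came from 12 mice, of which 5 gave both a DN2 and a DN3a library. The sources used here do not give the promoter that drives the transgene or the number of founder lines.

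P2rx7 (Entrez gene 18439) encodes P2X7, a channel that extracellular ATP opens at the cell surface. In T cells it passes calcium and sodium, it drives the shedding of surface proteins and phosphatidylserine exposure, and prolonged opening can kill the cell. Mouse T cells also open it through ADP-ribosylation of the receptor by ecto-enzymes that use NAD. The C57BL/6 strain carries an amino acid change in the intracellular tail of P2X7 that lowers its pore activity, a change all groups share by strain. Mdga1 (Entrez gene 74762) encodes a glycosylphosphatidylinositol (GPI) anchored surface protein with immunoglobulin domains and a MAM domain. It is best known in the nervous system, where it binds neuroligin-2 and limits its synaptic contacts.

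P2rx7 lies on chromosome 5 at 122643927 to 122692336 of GRCm38 and Mdga1 on chromosome 17 at 29827956 to 29888583. The deposited table gives counted lengths of 5395 and 7566 bases. P2rx7 has a second start within the gene, which gives the P2X7k form described in mouse T cells, and counts per gene cannot tell the starts apart. The sequences before both P2rx7 starts are shown because the RNA level of this gene differed so widely between the groups. They come from the RefSeq promoter table (GRCm38, plus strand). Capitals mark matches on either strand to 6 motifs of factor families active in early thymocytes. These are GATA (GATA), E-box (CANNTG), RUNX (TGTGGT), TCF/LEF (CTTTGA), RBPJ (TGGGAA) and ETS (GGAAGT). E-boxes are bound by the helix-loop-helix factors with which LMO2 complexes assemble.
P2rx7 start 1, chr5:122643677-122643910: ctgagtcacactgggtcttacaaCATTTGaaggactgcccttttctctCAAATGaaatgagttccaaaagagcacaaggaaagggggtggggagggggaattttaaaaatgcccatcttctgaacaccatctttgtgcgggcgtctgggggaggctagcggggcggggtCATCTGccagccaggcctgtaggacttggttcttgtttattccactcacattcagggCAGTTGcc
P2rx7 start 2, chr5:122650133-122650382: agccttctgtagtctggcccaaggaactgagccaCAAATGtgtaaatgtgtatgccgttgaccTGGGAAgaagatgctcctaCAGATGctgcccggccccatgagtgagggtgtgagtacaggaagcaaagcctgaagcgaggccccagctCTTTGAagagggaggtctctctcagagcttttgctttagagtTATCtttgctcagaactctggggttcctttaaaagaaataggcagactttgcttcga
The window before start 1 held 4 E-box matches and none of the other motifs. The window before start 2 held 2 E-box matches and 1 match each to the GATA, TCF/LEF and RBPJ motifs. The 250 bases before the Mdga1 start in the same promoter table (chr17:29887883-29888132, minus strand) held 0 matches to any of the 6. They lie inside the bounds of Mdga1 given above, which reach 29888583, so they do not precede its outermost start and are not set against the P2rx7 windows. They are not printed because another transcript covers them as exon. Matches are common: 66.2% of 32851 promoters held an E-box match, 53.6% a GATA, 21.6% an RBPJ, 19.7% an ETS, 14% a RUNX and 13.8% a TCF/LEF match. None of the matches overlapped another, and the letters alone do not show that a factor binds.

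Libraries held 7183303 to 11360308 counted reads, so a single read was worth 0.0880 to 0.139 CPM (reads scaled to library size). The first wild-type DN2 library had reads in only 13028 genes, against 14447 to 15680 in the rest. Lmo2 stood at 114 ± 43.7 CPM (SD, n = 3) in transgenic DN2, 33.8 ± 6.77 in transgenic young DN3a and 25.3 ± 4.72 in transgenic old DN3a. The wild-type means were at most 0.330 CPM, so the transgene labels matched the reads. The 13 DN3a markers summed to 12270 to 15488 CPM in wild-type young DN3a and to 8206 to 8453 in wild-type DN2. Their sums in transgenic cells were 4325 to 5266 CPM (DN2), 7560 to 8726 (young DN3a) and 6072 to 6836 (old DN3a). The 13 DN2 markers summed to 294 to 348 CPM in wild-type DN2 and to 176 to 239 in wild-type young DN3a, so the stage labels matched their markers in wild-type mice. Levels below are CPM, given as mean ± SD over the libraries of a group. In bulk libraries a smaller share of cells that express a gene and less RNA in each of them cannot be told apart.

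P2rx7 was expressed at a low level in wild-type DN2 cells and stood near 0 in wild-type DN3a cells. The 2 wild-type DN2 libraries held 92 and 74 reads, or 8.10 and 7.59 CPM (7.84 ± 0.361, n = 2). The 3 wild-type young DN3a libraries held 2, 6 and 4 reads, or 0.190, 0.638 and 0.394 CPM (0.407 ± 0.224, n = 3). The wild-type old DN3a libraries held 2, 11 and 6 reads, or 0.239, 1.20 and 0.709 CPM (0.716 ± 0.480, n = 3). All 6 wild-type DN3a libraries lay below both wild-type DN2 libraries, and the ratio of the DN2 to the young DN3a mean was 19.3.

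In transgenic mice P2rx7 was high at both stages and both ages. Transgenic DN2 libraries held 756, 589 and 705 reads, or 75.2, 82.0 and 84.9 CPM (80.7 ± 5.0, n = 3). Transgenic young DN3a libraries held 581, 979 and 1222 reads, or 75.7, 120.0 and 121 CPM (106 ± 26.0, n = 3). Transgenic old DN3a libraries held 1305, 920 and 975 reads, or 137, 85.2 and 98.7 CPM (107 ± 26.7, n = 3). The 9 transgenic libraries spanned a 1.82-fold range, and the lowest of them lay 9.28 times above the highest wild-type library. In order of mean CPM, transgenic old DN3a, transgenic young DN3a and transgenic DN2 came first. Young DN3a overlapped both of its neighbours in that order, while the old DN3a libraries, from 85.2 CPM, lay just above the DN2 libraries, up to 84.9 CPM. Wild-type DN2 came next, and the overlapping wild-type old and young DN3a groups came last. The order of the transgenic groups depended on scaling. With the scaling factors of the fit (TMM), transgenic young DN3a (mean 111) stood above old DN3a (105). The old DN3a libraries, from 82.4, then overlapped the transgenic DN2 libraries, up to 94.8.

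Mdga1 followed the same course. Wild-type DN2 libraries held 271 and 209 reads, or 23.9 and 21.4 CPM (22.6 ± 1.72, n = 2). Wild-type young DN3a libraries held 8, 8 and 49 reads, or 0.760, 0.850 and 4.83 CPM (2.15 ± 2.32, n = 3). Replicate 3, from a mouse of 3 weeks and in a library whose description opens with another letter, made up most of that mean. Wild-type old DN3a libraries held 10, 19 and 23 reads, or 1.20, 2.07 and 2.72 CPM (2.00 ± 0.765, n = 3). All 6 wild-type DN3a libraries lay below both DN2 libraries, and the DN2 mean was 10.5 times the young DN3a mean.

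In transgenic DN2 the Mdga1 libraries held 3230, 2693 and 2918 reads, or 321, 375 and 351 CPM (349 ± 26.9, n = 3). Transgenic young DN3a libraries held 1470, 2637 and 2873 reads, or 191, 323 and 285 CPM (267 ± 67.9, n = 3). Transgenic old DN3a libraries held 3326, 3106 and 2855 reads, or 348, 288 and 289 CPM (308 ± 34.6, n = 3). The transgenic groups overlapped one another, their libraries spanned a 1.96-fold range, and the lowest lay 8.03 times above the highest wild-type library.

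**Figure D1:**
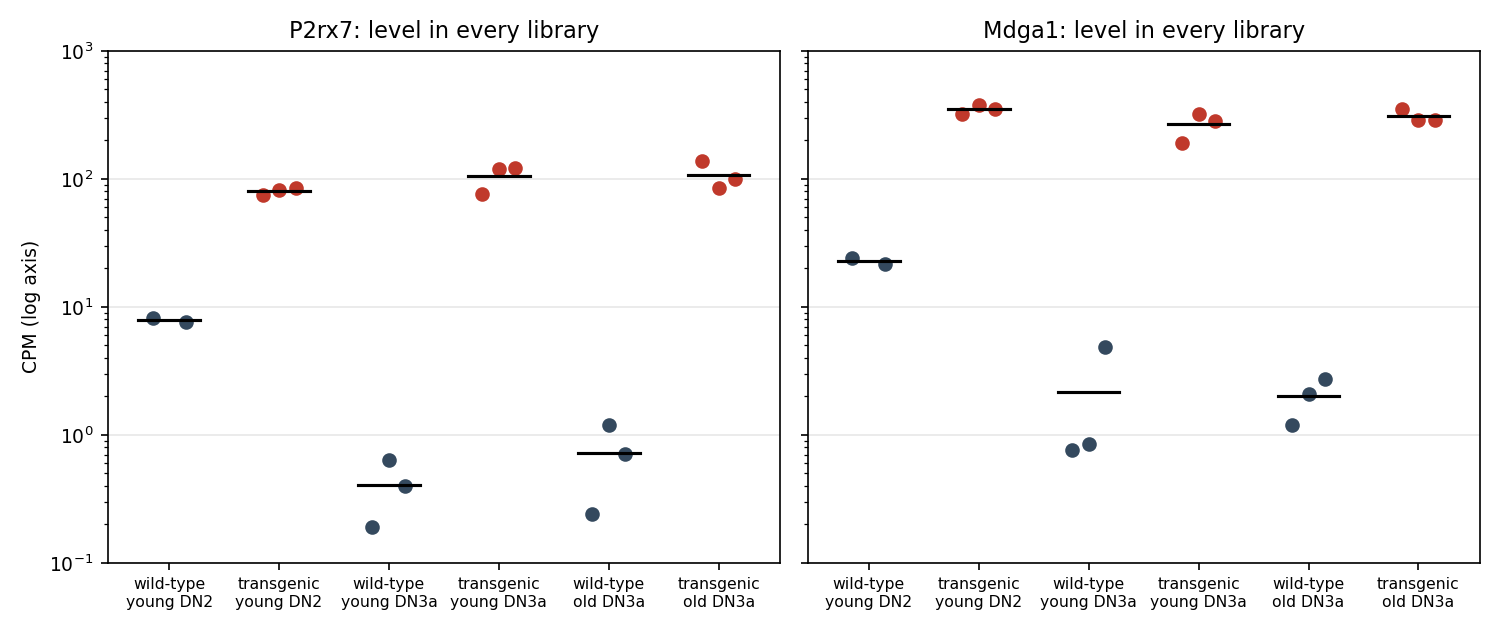
P2rx7 (left) and Mdga1 (right) in CPM on a log axis, with 1 point per library and a bar at the mean of each of the 6 groups. All 9 transgenic libraries (red) lie above all 8 wild-type libraries (dark), and the wild-type DN3a libraries lie below the wild-type DN2 libraries.

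The data qualify the description of the genes as kept on. In transgenic DN3a cells neither gene stood at its wild-type DN2 level: P2rx7 stood at 13.5 times that level in young and 13.6 times in old mice, and Mdga1 at 11.8 and 13.6 times (ratios of mean CPM). The fitted log2 fold changes of transgenic young DN3a over wild-type DN2 were 3.83 ± 0.31 (SE) for P2rx7 and 3.64 ± 0.42 for Mdga1. Those of transgenic old DN3a were 3.75 ± 0.31 and 3.75 ± 0.42. The high level was already there in DN2.

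The comparison of transgenic with wild-type DN2 cells was not itself used to choose the genes. Both of its groups enter other comparisons that were used, so its p-values are not independent of that choice. P2rx7 was 11-fold higher in transgenic DN2 (95% interval 7.08 to 17.2), a log2 fold change of 3.46 ± 0.30 (SE) with an adjusted p of 7.61e-07 in edgeR's quasi-likelihood test over 13534 genes. Mdga1 was 16.6-fold higher (8.86 to 31.0), a log2 fold change of 4.05 ± 0.43 with an adjusted p of 5.08e-06 in the same test. For both genes the 3 transgenic libraries lay above the 2 wild-type libraries. Both passed in a comparison where 25.4% of all genes were called and 13.4% were called higher. A larger absolute log2 fold change was seen for 3.13% of genes in the case of P2rx7 and for 2.08% in the case of Mdga1.

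The differences used to choose the genes were larger still. From wild-type DN2 to young DN3a the fitted log2 fold change was -4.33 ± 0.40 (SE) for P2rx7 and -3.47 ± 0.43 for Mdga1. Without wild-type young DN3a replicate 3 the Mdga1 value was -4.88. Transgenic over wild-type young DN3a gave 8.16 ± 0.36 for P2rx7 and 7.11 ± 0.44 for Mdga1, and 8.51 for Mdga1 without that library. In old DN3a the values were 7.18 ± 0.34 and 7.27 ± 0.45. The denominators of these folds are small, 12 reads of P2rx7 and 65 of Mdga1 over the 3 wild-type young DN3a libraries.

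**Figure D2:**
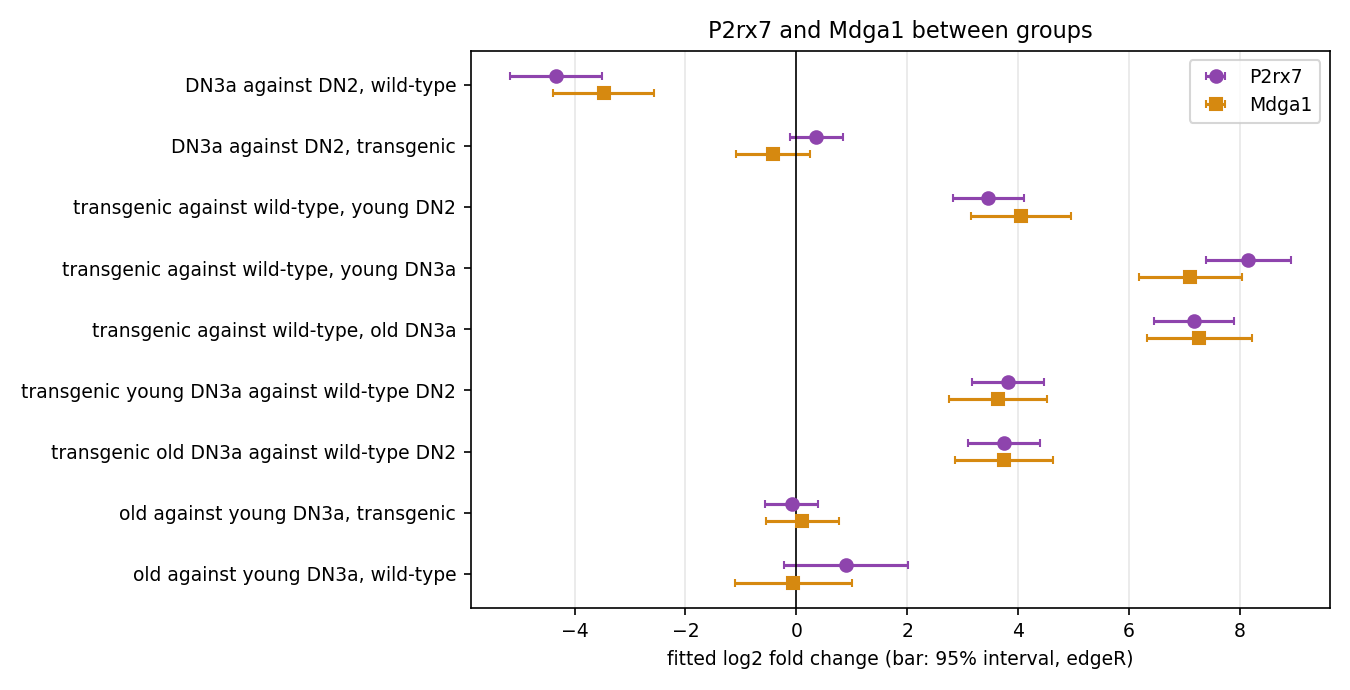
Fitted log2 fold changes of P2rx7 (circles) and Mdga1 (squares) between the groups named on the vertical axis, with 95% intervals from edgeR. For transgenic over wild-type, P2rx7 and Mdga1 lie at 3.46 and 4.05 in DN2 and at 8.16 and 7.11 in young DN3a. In the transgenic stage comparison they lie on either side of 0, at 0.37 and -0.41. Their intervals include 0 there and in the age comparisons.

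The levels in DN3a at both ages entered the choice of the genes, so differences with age are given as a description, without a test. Age is partly mixed with sex and with the letter that opens a library's description. All old mice were female, while each young DN3a group held a male (mouse 2 or mouse 166). The letter was a in all transgenic young DN3a libraries and a, b and b in the old ones. Wild-type DN3a held both letters at both ages. In transgenic DN3a the log2 fold change of old over young was -0.08 ± 0.23 (SE; 95% interval -0.56 to 0.39) for P2rx7. For Mdga1 it was 0.11 ± 0.32 (-0.55 to 0.78). In that comparison 7.81% of all genes were called. In wild-type DN3a the value was 0.90 ± 0.53 (-0.23 to 2.02) for P2rx7, on 12 against 19 reads, and 0.229% of all genes were called. For Mdga1 it was -0.05 ± 0.50 (-1.11 to 1.01), and 1.35 without young replicate 3. The difference between transgenic and wild-type was -0.98 ± 0.58 in old minus young DN3a for P2rx7 and 0.16 ± 0.60 for Mdga1, in a comparison with 3.05% of all genes called. The Mdga1 value was -1.24 without wild-type young DN3a replicate 3.

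The mice that gave both stages showed the change within an animal. In wild-type mouse 1 P2rx7 went from 8.10 CPM in DN2 to 0.190 in DN3a, and in mouse 2 from 7.59 to 0.638. Mdga1 went from 23.9 to 0.760 CPM in mouse 1 and from 21.4 to 0.850 in mouse 2. In both animals both genes were lower in DN3a, by 11.9 to 42.6 times.

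In the 3 transgenic mice there was no such drop. P2rx7 stood at 75.2 CPM in DN2 and 120.0 in DN3a of mouse 162, at 82.0 and 121 in mouse 163, and at 84.9 and 75.7 in mouse 166. Mdga1 stood at 321 and 323 CPM in mouse 162, at 375 and 285 in mouse 163 and at 351 and 191 in mouse 166. The ratio of DN3a to DN2 was 1.60, 1.48 and 0.891 for P2rx7 and 1.01, 0.761 and 0.545 for Mdga1, in the same order of mice. In each mouse the ratio of Mdga1 was the smaller of the pair. Over the groups the fitted log2 fold change from DN2 to DN3a was 0.37 ± 0.23 (SE) for P2rx7 and -0.41 ± 0.32 for Mdga1.

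**Figure D3:**
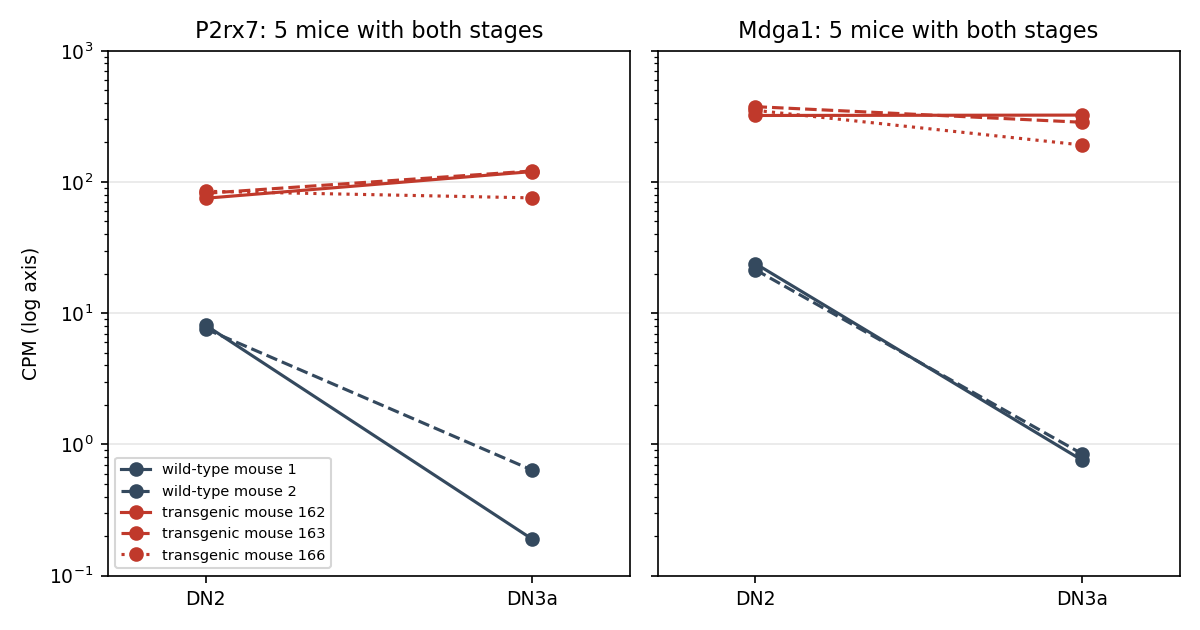
P2rx7 (left) and Mdga1 (right) in DN2 and DN3a libraries of the same mouse, in CPM on a log axis, with 1 line per mouse. The lines of wild-type mice 1 and 2 drop from 8.10 and 7.59 CPM to below 1 CPM for P2rx7, and those of transgenic mice 162, 163 and 166 stay above 75 CPM for P2rx7 and above 190 CPM for Mdga1.

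The balance between the 2 transcripts thus differed by stage in transgenic mice. Per kilobase of counted length, a measure that does not depend on how libraries are scaled, Mdga1 stood at 2.95 to 3.26 times P2rx7 in the 3 transgenic DN2 libraries. It stood at 1.68 to 1.92 times in transgenic young DN3a and at 1.82 to 2.41 times in transgenic old DN3a. Neither DN3a range overlapped that of DN2. In wild-type DN2 the ratio was 2.01 and 2.10. This ratio was looked at after the levels had been seen and was not tested.

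Among 10431 genes with a symbol and a mean of at least 5 CPM in their highest group, each member was the gene most like the other across the 17 libraries (Pearson r of log2 CPM 0.986). Next were Slc22a3, an organic cation transporter (r = 0.976 with P2rx7 and 0.980 with Mdga1), and Tspan32, a tetraspanin of blood cells (0.963 and 0.975). Then came F2r, the thrombin receptor (0.954), and the protocadherin Pcdh7 (0.953) for P2rx7. For Mdga1 they were Pcyt1a, an enzyme of phosphatidylcholine synthesis (0.968), and Lyl1, a helix-loop-helix factor of progenitors (0.964). These values mostly measure the gap between transgenic and wild-type libraries, which form separate clusters. P2rx7 and Mdga1 were chosen together for their levels in these same libraries, so a high r between them was built into the choice. Within the 9 transgenic libraries r between P2rx7 and Mdga1 was 0.12. Within the 8 wild-type libraries, where DN2 stands apart from DN3a for both genes, a difference used to choose them, it was 0.90. By rank correlation over all libraries (rho = 0.877) Mdga1 was only the 19th gene for P2rx7, and P2rx7 the 66th for Mdga1. An r above 0.95 was reached by 7 genes for P2rx7 and by 16 for Mdga1.

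The companions differed among themselves in how low they stood in wild-type DN3a. Slc22a3 was still at 26.4 to 52.1 CPM in wild-type young DN3a libraries, F2r at 9.14 to 26.2 CPM and Pcyt1a at 9.88 to 26.0 CPM. Tspan32 (0.106 to 0.197 CPM) and Pcdh7 (0.855 to 1.58 CPM) stood low there, as P2rx7 and Mdga1 did. Lyl1 stood at 1.14, 0.531 and 6.80 CPM, highest in replicate 3, as Mdga1 did.

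That library was higher in several progenitor genes together. The DN2 marker Hhex stood at 0.855, 0.425 and 4.24 CPM in wild-type young DN3a replicates 1 to 3 and the progenitor protease gene Cpa3 at 16.0, 6.48 and 75.1 CPM, while P2rx7 was at 0.190, 0.638 and 0.394. So Mdga1 was higher in replicate 3 together with these genes and P2rx7 was not. Whether cells of an earlier stage had a part in the Mdga1 value was not tested.

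The genes were also set beside the markers of their stage and of other cells. In transgenic young DN3a the summed DN2 markers, mostly Kit and Erg, stood at 251 to 323 CPM, against 294 to 348 in wild-type DN2. Single markers went both ways: Lyl1 stood at 52.7 against 26.4 CPM and Hhex at 25.1 against 14.5, while Cd44 stood at 3.54 against 21.1 and Mef2c at 0.403 against 9.71. Over wild-type young DN3a, 4 of 12 tested DN2 markers were called higher and 2 lower (4.69% and 5.14% of all genes). The part of cells of an earlier stage in the levels of P2rx7 and Mdga1 was not tested. In transgenic DN2 these markers summed to 1256 to 1541 CPM and in transgenic old DN3a to 380 to 622. Of the lists of other cells, the 8 mast cell genes moved with P2rx7 and Mdga1. Their sum was 175 to 297 CPM in wild-type DN2, 595 to 843 in transgenic DN2, 6.91 to 75.7 in wild-type young DN3a, 330 to 610 in transgenic young DN3a, 11.1 to 67.2 in wild-type old DN3a and 697 to 1144 in transgenic old DN3a. Nearly all of it was Cpa3, and the defining mast cell genes Ms4a2, Fcer1a, Tpsb2, Cma1 and Mcpt4 were at 0 reads in every group. The 10 macrophage and monocyte genes, cells in which P2rx7 is abundant, summed to 34.7 to 41.9 CPM in transgenic DN2, 19.7 to 31.4 in transgenic young DN3a and 10.1 to 18.0 in transgenic old DN3a. In the wild-type groups they summed to 27.7 to 33.0, 31.2 to 43.5 and 33.5 to 51.4 CPM, and Cd14 was at 0 in all 6 groups.

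Podxl, Tbx4 and Bmpr1a, also near 0 in wild-type young DN3a and higher in every transgenic young DN3a library, differed from P2rx7 and Mdga1 in normal DN2 cells. They had 0, 2 and 1 reads over both wild-type DN2 libraries, against 166 reads of P2rx7 and 480 of Mdga1. In transgenic old DN3a Tbx4 was high at 99.1, 94.0 and 43.0 CPM. Podxl stood there at 22.2, 0.370 and 0.101 CPM and overlapped wild-type old DN3a, and Bmpr1a stood at 3.98, 0.185 and 1.32 CPM and overlapped it too.

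P2rx7 sits in a cluster with its relative P2rx4, so the genes next to both members were read in the same comparisons. Of the 4 nearest genes with counts on each side of P2rx7, 3 of 8 were called higher in transgenic DN2 (13.4% of all genes were), 4 of 8 in young DN3a (4.69%) and 3 of 8 in old DN3a (14.9%), and 0 were called lower by edgeR in any of the 3. P2rx4, 15182 bases away and a slower-desensitising ATP channel, stood at 38 ± 4.71 CPM in transgenic against 13 ± 4.21 in wild-type DN2, a log2 fold change of 1.64 ± 0.27. It was also higher in young DN3a (0.76 ± 0.23), a call that was lost with mouse as a random block (limma adjusted p = 0.0682), and was at 0.09 ± 0.23 in old DN3a. Camkk2, a calcium-dependent kinase, was higher in all 3 settings (1.16 ± 0.22, 0.71 ± 0.19 and 0.86 ± 0.19). So was Ift81, an intraflagellar transport gene 29381 bases away on the other side (1.56 ± 0.44, 1.81 ± 0.38 and 1.00 ± 0.37), at levels below 10 CPM. P2rx4 and Camkk2 overlap at their ends, and without the strand of the reads, not stated in the sources used, shared reads cannot be told apart. All these values lay below those of P2rx7.

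Around Mdga1, of 7 tested neighbours, Zfand3 (0.69 ± 0.20) and Btbd9 (0.67 ± 0.19) were called higher in transgenic DN2, where 13.4% of all genes were. In young and old DN3a 0 of 7 were called by edgeR, against 4.69% and 14.9% of all genes called higher. The nearest gene with counts, Ccdc167, lies 110915 bases away and did not pass in any setting (-0.21 ± 0.25, 0.15 ± 0.23 and -0.37 ± 0.23). The neighbours' log2 fold changes lay far below the 4.05 to 7.27 of Mdga1 itself.

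**Figure D4:**
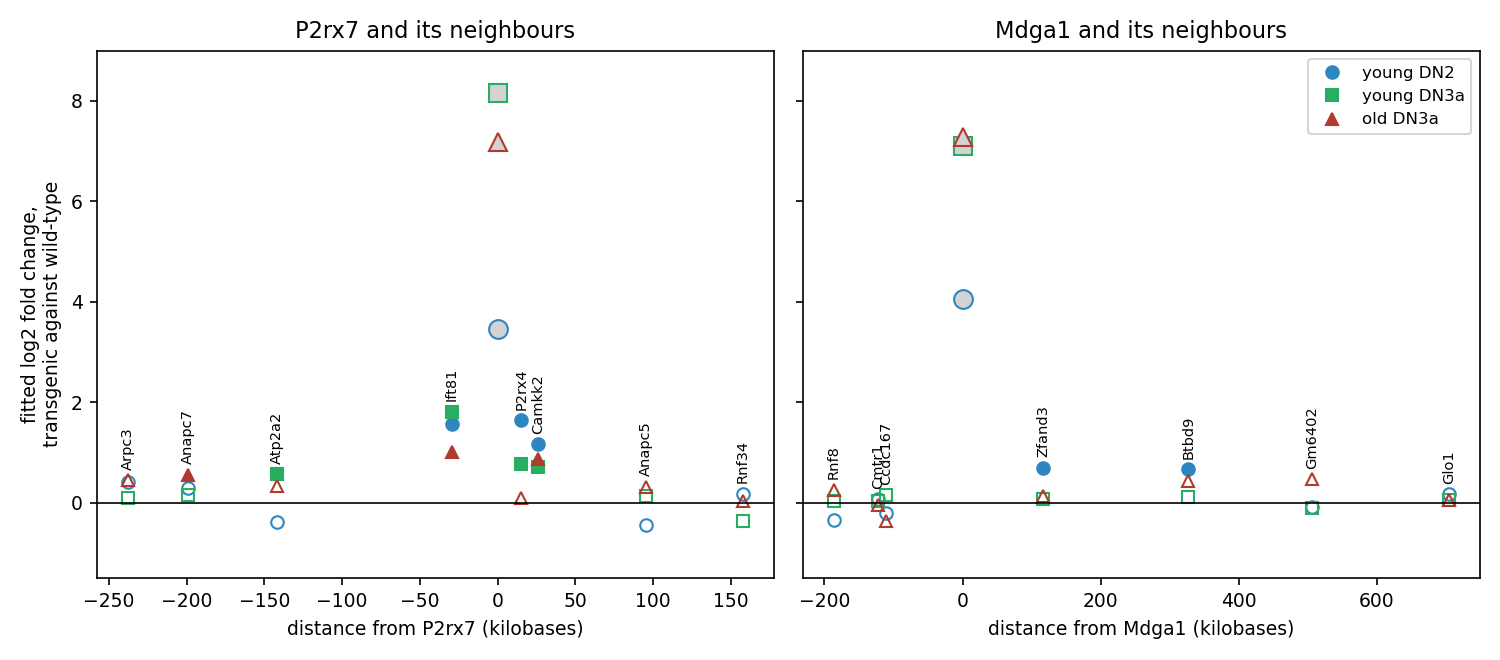
Fitted log2 fold changes, transgenic over wild-type, of the tested neighbours of P2rx7 (left) and Mdga1 (right) against their distance in kilobases, with the member itself in grey at 0. Filled symbols passed the edgeR test at an adjusted p under 0.05. P2rx4, Camkk2 and Ift81 lie between 0 and 2, below the 3.46 to 8.16 of P2rx7, and the Mdga1 neighbours lie near 0.

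Many calls among the neighbours and the pathway genes ended when 1 library was left out. In DN2 this held for 19 of the 28 calls among the 42 such genes followed through every alternative. In young DN3a it held for 5 of 9, and for old DN3a it was 9 of 27. Under every alternative run, 8, 4 and 18 of these calls were kept. Bst1, Dpp4 and Camkk2 in DN2, Bst1 and Dpp4 in young DN3a and Bst1, Dpp4, P2ry1, P2rx1 and Casp1 in old DN3a were among those that passed under every alternative run. Most of the followed genes were named because they were called, so these counts are not rates. Calls over all genes moved too when a library was left out. They went from 3436 to between 1562 and 4318 in DN2, from 1331 to between 733 and 1397 in young DN3a and from 4145 to between 3075 and 3938 in old DN3a.

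Among the other P2X channels no gene followed P2rx7 through the 3 settings. Of 5 tested, P2rx4 was called higher in DN2 and young DN3a, and P2rx1, a fast-desensitising channel, was called lower in young and old DN3a. Of all genes, 13.4% were called higher in DN2 and 4.69% in young DN3a. In young and old DN3a 5.14% and 15.7% of all genes were called lower. In DN3a P2rx1 differed in the opposite direction to P2rx7, while in DN2 it did not pass (0.60 ± 0.74). In young DN3a it stood at 27, 34.3 and 16.6 CPM in wild-type libraries and at 4.82, 5.15 and 4.07 CPM in transgenic ones (log2 fold change -2.28 ± 0.59), and in old DN3a the log2 fold change was -3.86 ± 0.68. P2rx2, P2rx3 and P2rx5 stood below 1 CPM in every group mean and did not pass, and P2rx6 was too low to test. The median log2 fold change of the 5 was 2.57, 0.76 and -0.60 in DN2, young and old DN3a, against 0.03, 0.02 and -0.04 over all genes, and the first was 2.11 without P2rx2, which had no read in wild-type DN2.

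Of 7 tested P2Y and adenosine receptors, P2ry1, an ADP receptor, was called higher in DN2 (1.43 ± 0.43), young DN3a (2.54 ± 0.41) and old DN3a (3.23 ± 0.41). Its level in old DN3a was 12.4 ± 2.51 CPM against 1.33 ± 0.687 in wild-type. The lysophospholipid receptor gene P2ry10 was called lower in DN2 (-1.35 ± 0.22) and old DN3a (-0.78 ± 0.20). P2ry14, a receptor of UDP-sugars, was called lower (-2.89 ± 0.57) and the adenosine receptor gene Adora2a higher (0.57 ± 0.19) in old DN3a. Calls on this list were 1 higher and 1 lower in DN2, where 13.4% and 12.0% of all genes were. In young DN3a 1 was called higher (4.69% of all genes), and in old DN3a 2 higher and 2 lower (14.9% and 15.7%). The medians were 0.55, -0.26 and -0.04 in the 3 settings.

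The list of enzymes that use or remove ATP or NAD also holds genes tied to adenosine, and its members were called in both directions. Of 11 tested, 1 was called higher and 4 lower in DN2 (13.4% and 12.0% of all genes). In young DN3a it was 1 and 2 (4.69% and 5.14%), and in old DN3a 3 and 2 (14.9% and 15.7%). Those called higher were Dpp4 in all 3 settings and Nt5e and Ada in old DN3a, and Ada was called lower in DN2. Dpp4 (CD26), a surface protease that binds adenosine deaminase, was higher in all 3 settings (0.91 ± 0.19, 1.07 ± 0.17 and 0.98 ± 0.17). Bst1 (CD157), an enzyme that consumes NAD, was lower in all 3 (-2.44 ± 0.46, -1.73 ± 0.41 and -2.10 ± 0.41). Alpl, an alkaline phosphatase below 2 CPM in every group mean, was lower in DN2 (-4.37 ± 1.14). Art1, an ADP-ribosyltransferase, was lower in DN2 (-1.64 ± 0.48) and young DN3a (-1.51 ± 0.42). Art2a and Art2b, ADP-ribosyltransferase genes of mature mouse T cells, were too low to test in these libraries. Entpd1 (CD39), which degrades ATP, was lower in old DN3a (-2.94 ± 0.51), where Nt5e (CD73), which makes adenosine from AMP, was higher (3.10 ± 1.00), a call lost with mouse as a random block (limma adjusted p = 0.0534). The medians of the list were -0.05, -0.27 and -0.46.

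Of 7 tested channels and carriers that release ATP, 2 were called higher and 1 lower in DN2 (13.4% and 12.0% of all genes), and 1 higher and 2 lower in old DN3a (14.9% and 15.7%). In young DN3a edgeR called 0, with 3 at an unadjusted p under 0.05. Panx1, which opens downstream of P2X7, was higher in old DN3a (0.47 ± 0.15). The gap junction gene Gja1 was lower in DN2 (-2.61 ± 0.70) and old DN3a (-3.27 ± 0.76). The volume-regulated channel genes Lrrc8a (0.80 ± 0.24) and Lrrc8d (0.84 ± 0.21) were higher in DN2, and Lrrc8d was lower in old DN3a (-0.75 ± 0.18). The medians were 0.23, 0.33 and 0.37.

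Genes that act downstream of P2X7 were read in the same comparisons. Of 13 tested genes, 2 were called higher and 1 lower in DN2 (13.4% and 12.0% of all genes), and 1 and 4 in old DN3a (14.9% and 15.7%). In young DN3a edgeR called 0, with 5 at an unadjusted p under 0.05. Casp1, the inflammasome protease, stood at 24.1 ± 1.31 CPM in wild-type and 0.530 ± 0.156 in transgenic old DN3a (log2 fold change -5.46 ± 0.50) but was higher in transgenic DN2 (1.68 ± 0.42). In old DN3a Casp4, another inflammatory caspase (-4.14 ± 0.80), and the cytokine gene Il18 (-3.87 ± 0.88) were lower too. Ano6, a scramblase that acts when P2X7 exposes phosphatidylserine, was lower in DN2 (-1.12 ± 0.18) and higher in old DN3a (0.72 ± 0.16). The inflammasome sensor Nlrp3 and the cytokine gene Il1b were too low to test. The medians were 0.19, -0.22 and 0.05.

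**Figure D5:**
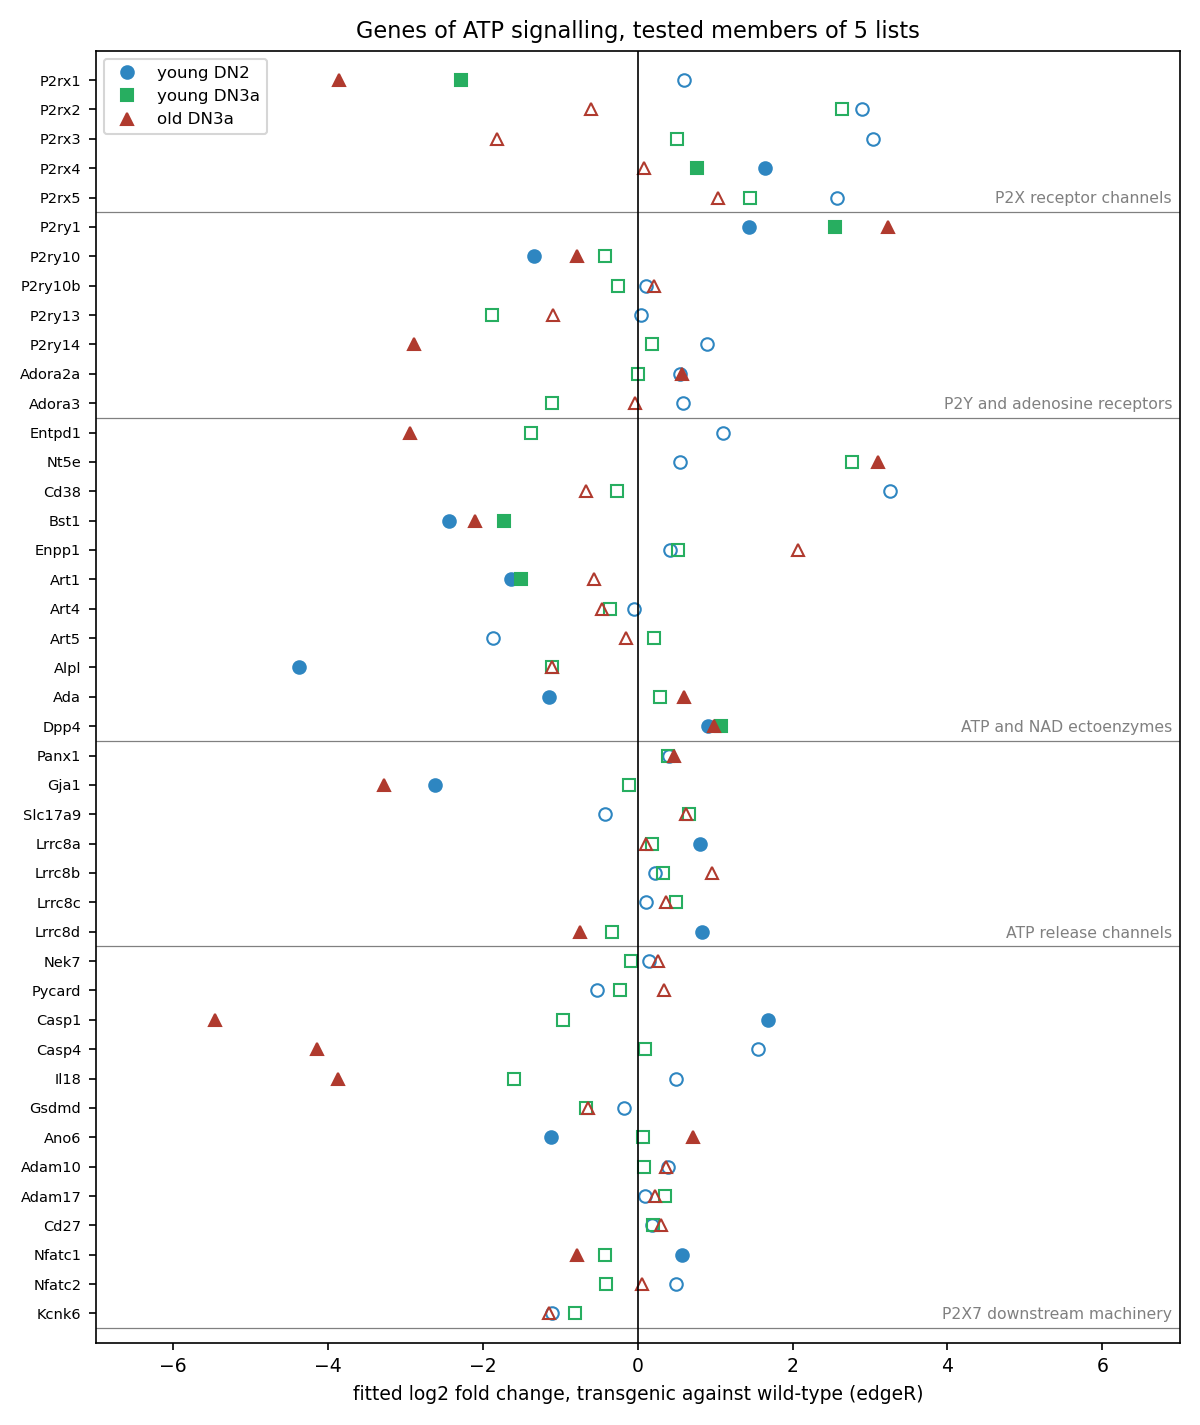
Fitted log2 fold changes, transgenic over wild-type, of the tested members of 5 lists of ATP signalling genes in young DN2 (circles), young DN3a (squares) and old DN3a (triangles), without P2rx7. Filled symbols passed the edgeR test at an adjusted p under 0.05. P2ry1 and Dpp4 lie above 0 and Bst1 lies below 0 with filled symbols in all 3 settings, and Casp1 runs from 1.68 in DN2 to -5.46 in old DN3a.

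The neuroligin genes, whose products Mdga1 binds in neurons, were low or did not pass. Of Mdga2, Nlgn1, Nlgn2 and Nlgn3, only Nlgn2 and Nlgn3 were tested, and Mdga2 and Nlgn1 had 0 reads in all 17 libraries. Nlgn2, the main binding partner, stood at 35.7 to 89.5 CPM in the group means and did not pass (0.30 ± 0.26, -0.31 ± 0.23 and 0.52 ± 0.23). In old DN3a its value ran from 0.25 to 0.80 when a library was left out, and it passed without transgenic replicate 1 (edgeR adjusted p = 0.00423, 0.0882 to 0.481 under the other alternatives). The medians of the 2 tested genes were 0.47, -0.25 and 1.13.

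Among other genes for MAM domain proteins, those called were lower. Of 5 tested, 4 were called lower in transgenic DN2 (12.0% of all genes were), 1 in young DN3a (5.14%) and 2 in old DN3a (15.7%), and 0 were called higher by edgeR. The receptor phosphatase gene Ptprk was lower in all 3 (-1.73 ± 0.40, -1.37 ± 0.38 and -1.11 ± 0.39). Nrp1, a co-receptor of semaphorins, was lower in DN2 (-3.80 ± 0.31) and old DN3a (-0.79 ± 0.24). In DN2 the low genes Ptpru (-4.40 ± 1.17) and Npnt (-2.97 ± 0.81), below 4 CPM in every group mean, were lower too. The medians were -2.97, -0.53 and -0.79.

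The 26 genes of GPI anchor synthesis and transfer, on which surface display of MDGA1 depends, were all expressed at a testable level. In DN2 2 were called higher and 4 lower (13.4% and 12.0% of all genes), and in old DN3a 1 higher and 6 lower (14.9% and 15.7%). In young DN3a edgeR called 0, with 4 at an unadjusted p under 0.05. Those called higher were Pigv (0.84 ± 0.22) and Pgap2 (0.77 ± 0.22) in DN2 and Pigf (0.98 ± 0.33) in old DN3a. The lower ones in DN2 were Pigf (-1.14 ± 0.35), Pigw (-1.12 ± 0.34), Gpaa1 (-0.96 ± 0.25) and Pigu (-0.88 ± 0.20), and those in old DN3a included Pigp (-1.20 ± 0.32), Pigg (-1.03 ± 0.28), Pigc (-0.88 ± 0.24) and Pigm (-0.85 ± 0.18). The medians were -0.0032, 0.04 and -0.24.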

How the data were processed

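RNA was made into TruSeq libraries and sequenced as single-end reads, per the labels' protocols. The authors deposited unnormalised read counts of 27179 Entrez identifiers, for which the submitters' processing notes name featureCounts and mm10. For the aligner, the annotation and the strand, the sources used here give nothing. RefSeq named 25275 identifiers and GENCODE 18. Unnamed ones held 0.947 to 19.8% of a library's reads, a single such feature 0.306 to 16.6%. A further wild-type DN2 library of the design is not analysed here, and some genes of the lists are not reported here.

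All 17 libraries entered a single quasi-likelihood fit in edgeR 4.0.16 under R 4.3.3, with TMM factors and 1 mean per group. The filter (minimum count 10, minimum total 15) left 13534 of 18760 genes with a read. P-values were adjusted by Benjamini-Hochberg over all of them at 0.05. Age tests planned for P2rx7 and Mdga1 are not reported, since their choice used those levels. The SE is the absolute log2 fold change over the square root of F. CPM was computed on library totals, and log2 CPM used a prior count of 2. The genes, lists and comparisons were chosen with earlier results of these data known. Named genes are P2rx7, Mdga1, Lmo2, the 5 most like each member, 4 neighbours on each side, up to 4 called members of a pathway list by fold in each genotype comparison, and Podxl, Tbx4 and Bmpr1a. Hhex, Cpa3, Kit, Erg, Cd44 and Mef2c are list markers, named after their values were seen, as were values of Nlgn2, Ccdc167, P2rx2, P2rx3 and P2rx5, which did not pass.

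Mice are separate animals by label, but the same 5 mice enter both stages. Alternatives were DESeq2 1.42.0, limma 3.58.1 voom, RLE scaling, no filter, fewer groups, blocks by replicate number or mouse, library letter, sex and leaving out libraries. The log2 share of that feature as a term, and its removal with Lars2 and mitochondrial genes, were added after the data were seen. On simulated counts the procedure recovered 36% of genes planted at 2-fold and 98% at 4-fold in the DN2 comparison of 12966 genes.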

Additional observations from a re-analysis of the deposited data

Results flagged for a closer look

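Each of 6 genes of the lists above had transgenic libraries all above the wild-type ones in young DN2 and all below them in old DN3a, or the reverse, and was called by edgeR in both settings. The share of all genes that do so was not computed. In DN2 25.4% of all genes were called, and in old DN3a 14.9% were called higher and 15.7% lower. Leaving out a library ended the DN2 calls of Casp1, Lrrc8d, Nfatc1 and Pigf and the old DN3a calls of Ada and Pigf. The difference between the settings was not tested. It runs from DN2 to old DN3a, on the log2 scale, as follows. It was -7.14 for the protease gene Casp1, which was higher in transgenic DN2 and lower in transgenic old DN3a. The channel gene Lrrc8d (-1.58) and the transcription factor gene Nfatc1 (-1.35) ran the same way. The GPI anchor gene Pigf (2.12), the scramblase gene Ano6 (1.84) and the adenosine deaminase gene Ada (1.74) ran from lower in transgenic DN2 to higher in transgenic old DN3a. P2rx7 and Mdga1 were higher in transgenic libraries in both settings.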

How the results depend on the processing

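The DN2 differences of P2rx7 and Mdga1 kept their direction and passed under all 16 alternatives each, with log2 fold changes of 3.38 to 3.58 and 3.68 to 4.18 and adjusted p of at most 0.000175 and 0.000501. Age and genotype-by-age values near 0 changed sign. With library letter as a term, the age change in transgenic DN3a was 0.04 for P2rx7 and -0.24 for Mdga1, and the Mdga1 genotype-by-age value was -0.05. For Mdga1 voom with quality weights gave 1.23 and voom with mouse as a random block 0.42 for age in wild-type DN3a, and -1.23 and -0.30 for genotype by age. Leaving out a library gave -0.26 to 0.06 for P2rx7 age in transgenic DN3a, -0.46 to 1.35 for Mdga1 age in wild-type DN3a and -1.24 to 0.58 for Mdga1 genotype by age. The extremes 1.35 and -1.24 arose without wild-type young DN3a replicate 3. P2rx7 age in wild-type DN3a has no value in a fit of those 2 groups, whose filter removed it.

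The differences used to choose the genes kept their direction under every alternative. Without a library, the wild-type stage change was -4.77 to -3.99 for P2rx7 and -4.88 to -3.06 for Mdga1, and the young DN3a genotype difference 7.82 to 8.60 and 6.70 to 8.51. Voom with quality weights gave Mdga1 -4.65 and 8.38 there. Transgenic old DN3a over wild-type DN2 was 3.40 for Mdga1 with library letter and 3.58 with sex as a term. The cause of these shifts was not tested.

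Leaving out a library ended the following calls. In DN2 these were Art1, Btbd9, Casp1, Gja1, Gpaa1, Ift81, Lrrc8a, Lrrc8d, Nfatc1, Npnt, P2ry1, Pgap2, Pigf, Pigu, Pigv, Pigw, Ptprk, Ptpru and Zfand3, 16 of them without wild-type replicate 1, 8 without wild-type replicate 2 and 8 without transgenic replicate 2. In young DN3a they were Art1, Camkk2, P2rx1, P2rx4 and Ptprk, and in old DN3a Ada, Adora2a, Ift81, Nrp1, Nt5e, Panx1, Pigc, Pigf and Ptprk. Of other settings, the feature's share as a term ended 17, 4 and 5 calls in DN2, young and old DN3a, fits of only the groups compared 9, 1 and 5, and no filter 2, 1 and 3. Replicate number as a block ended Nfatc1 in DN2 (edgeR adjusted p = 0.0522) and Ift81 in old DN3a (0.0545), mouse as a random block P2rx4 in young and Nt5e in old DN3a, and library letter P2rx4 in young DN3a (0.0559). Values that had not passed changed sign for P2rx4 in old DN3a (-0.03 to 0.17 over fits that each left out a library) and for Ccdc167 in DN2 (-0.46 to 0.08) and young DN3a (-0.07 to 0.31).

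Counts of calls moved more. In DN2, 3436 genes and 56 list genes (members left out) were called, against 1443 and 30 with the log2 share of an unnamed abundant feature as a term, and 1562 to 4318 and 35 to 58 without a library, lowest without wild-type replicate 1. In young DN3a, 1331 and 31 were called, against 3692 and 62 by voom with quality weights, 1451 and 30 by voom with mouse as a random block and 733 to 1397 and 21 to 31 without a library, lowest without wild-type replicate 2 for all genes and replicate 1 for list genes. For age in transgenic DN3a, 1057 genes were called, 1798 by voom with quality weights, 930 with the mouse block, 493 with library letter and 456 to 1200 without a library. For age in wild-type DN3a, 31 were called, 125 by DESeq2, 274 and 36 by those voom fits, 63 with no filter, 18 in a fit of those groups, 84 with library letter, 13 with the feature's share and 9 to 47 without a library. For genotype by age, 413 were called, 738 by DESeq2, 642 and 289 by those voom fits, 109 with the feature's share and 191 to 610 without a library.

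With replicate number as a block, the DN2 differences were 3.43 for P2rx7 and 3.92 for Mdga1, and the block changed no call of either gene. The numbers only name libraries: deviations of same-numbered libraries correlated at -0.28 to 0.32, and those of the 5 mice with both stages at -0.07 to 0.19. Depth limits the wild-type DN3a values, which rest on 2 to 11 reads of P2rx7 and 8 to 49 of Mdga1 per library.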
